A study of Homo sapiens with 14 samples.

Results

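Barcodes in which mitochondrially encoded transcripts made up more than 10% of the UMIs were examined. The study's methods set barcodes above this share aside, and its own set of kept cells was not rebuilt here. A UMI (unique molecular identifier) tags a single captured mRNA molecule, and the mitochondrial share is the part of a barcode's UMIs that falls on the 13 genes of the mitochondrial genome. Members were taken from all 8 single-cell libraries among barcodes with 200 to 4500 genes and 1000 to 20000 UMIs. Of 67056 barcodes in all, 58562 were within these limits, and 10280 of the latter were over 10%. They were parted at 20%, which gave 7242 barcodes of 10 to 20% and 3038 over 20%, of which 955 were over 50%. The comparison group was the 45848 barcodes of 2 to 10% in the same libraries. The other 2434 barcodes within the limits were under 2% and were not used here.

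The mitochondrial genome encodes subunits of respiratory complexes I, III and IV and of the ATP synthase, and its mRNAs are made and kept inside the organelle. All other subunits, and the proteins that copy and read the mitochondrial genome, come from nuclear genes whose mRNAs lie in the cytosol, while some long noncoding RNAs such as MALAT1 and NEAT1 stay in the nucleus. A high mitochondrial share is commonly used to set aside barcodes of poor quality, because a cell with a broken membrane can lose cytosolic mRNA and keep its organelles. Cells also differ in how many mitochondria they hold. The share alone does not tell these apart, and neither was tested here. Because members were chosen by their mitochondrial share, which also has the total UMIs of the barcode in it, the mitochondrial share of a barcode, the mitochondrial genes and the depth are described without a test between members and the other barcodes. Between these, the makeup of the nuclear-encoded UMIs and the number of genes at equal depth were tested, and the share of members in a library was tested between lines and days.

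The libraries came from SW620, a human colorectal cancer line derived from a lymph node metastasis, cultured without passage and taken on days 6, 9, 12 and 15. SW620-FLAG cells, labelled SW620, carried an empty FLAG vector. SW620-TET2CD cells overexpressed the catalytic domain of TET2, a DNA demethylase, and the labels give no other genotype or agent for either line. Each line and day was a single library, so no line had a replicate culture on any day. P-values therefore measure the spread between these 8 libraries, which differ in line and day. TET2 itself, read from 3′ tags that cannot part the transgene from the endogenous gene, lay between 3.53 and 5.54 CPM (counts scaled to a common total per library) in the 4 SW620-FLAG libraries and between 52.1 and 165 CPM in the 4 SW620-TET2CD libraries at 2 to 10%. The lines did not overlap over 20% either, where TET2 was at 1.58 to 14.0 CPM in SW620-FLAG and 42.0 to 163 CPM in SW620-TET2CD.

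Total depth ran from 60309495 to 128282918 UMIs and from 5790 to 10713 barcodes per library. Of 66508 distinct barcode sequences, 548 occurred in 2 or more libraries, and 10 of the 10270 distinct sequences among the members did so. All 7 epithelial markers (EPCAM, KRT8, KRT18, KRT19, CDH1, CDX2 and VIL1) had UMIs in every group. Summed, they lay between 10070 and 15190 CPM at 2 to 10%, between 9466 and 15580 CPM at 10 to 20% and between 5099 and 11740 CPM over 20%. Markers of leukocytes, fibroblasts, endothelial and erythroid cells were low throughout. The highest sum over 20% was 30.2 CPM for the 5 leukocyte markers and 32.6 CPM for the 6 fibroblast markers. CD3E, CD79A, COL3A1, DCN, PDGFRA, KDR, HBB and HBA2 were at 0 over 20%. At 2 to 10% these genes had only 0 (KDR) to 145 (CD79A) UMIs in all libraries together. Sums over 20% held at most 1055403 nuclear-encoded UMIs per library, against at least 43193894 at 2 to 10%, so these zeros say little.

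Barcodes over 10% made up from 4.42 to 27.7% of a library. SW620-FLAG had 7.50% (450 barcodes) at day 6, 27.7% (2877) at day 9, 12.9% (581) at day 12 and 14.4% (1167) at day 15. SW620-TET2CD had 4.42% (377), 21.3% (1745), 18.9% (910) and 27.0% (2173) at these days. The day 9 library was the highest of SW620-FLAG and the day 15 library the highest of SW620-TET2CD, and day 6 was the lowest of both. The widest exact (Clopper-Pearson) 95% interval ran from 17.8 to 20.1% (SW620-TET2CD at day 12), and these intervals cover counting error only.

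SW620-TET2CD minus SW620-FLAG came to -3.08 points (day 6), -6.40 (day 9), 6.06 (day 12) and 12.5 (day 15). The mean difference was 2.27 points (exact sign-flip permutation over the 4 days, two-sided p = 0.75). The smallest p that 4 days allow is 0.13. Days 12 and 15 minus days 6 and 9 came to -3.94 points in SW620-FLAG and 10.1 points in SW620-TET2CD, with a mean of 3.07 points (exact permutation test over the 4 days inside a line, two-sided p = 0.667). Neither mean difference was larger than the spread between libraries. The test of days counted both libraries of a day as independent.

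Barcodes of 10 to 20% made up 2.50% of SW620-FLAG at day 6, 25.2% at day 9, 6.87% at day 12 and 6.24% at day 15. Those of SW620-TET2CD made up 1.42%, 16.7%, 12.7% and 19.3%. The libraries of day 9 and the SW620-TET2CD library of day 15 held 5545 of the 7242 barcodes. Over all their barcodes within the limits, these libraries had median mitochondrial shares of 8.53% (SW620-FLAG day 9), 7.88% (SW620-TET2CD day 9) and 8.05% (SW620-TET2CD day 15) beside 4.02 to 7.45% in the other 5 libraries.

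Over 20% the share was 5.0%, 2.46%, 6.01% and 8.21% in SW620-FLAG and 3.00%, 4.61%, 6.20% and 7.64% in SW620-TET2CD on days 6, 9, 12 and 15. All 4 libraries of days 12 and 15 were above all 4 of days 6 and 9. With both libraries of a day counted as independent, the difference was 3.24 points (exact permutation, two-sided p = 0.0556, the smallest that the 36 arrangements allow). Between the lines it was -0.06 points (exact sign-flip permutation, p = 1.0). The 10 to 20% group outnumbered the group over 20% in 5 of 8 libraries.

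**Figure D1:**
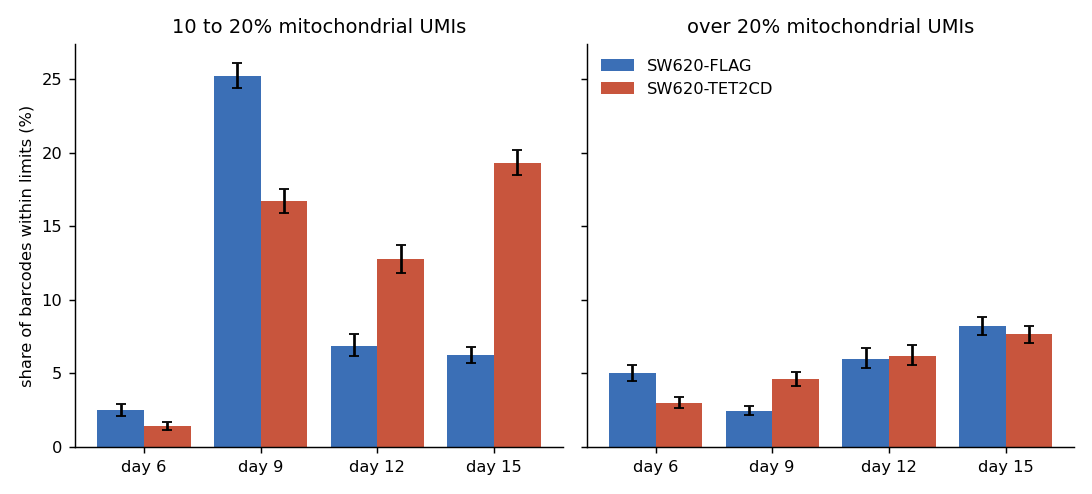
Share of the barcodes within the limits (y axis, %) with 10 to 20% (left) or over 20% (right) mitochondrial UMIs, by day and line; bars are single libraries and error bars exact 95% binomial intervals. The 10 to 20% share peaked at 25.2% in SW620-FLAG on day 9 and at 19.3% in SW620-TET2CD on day 15, while over 20% the 4 libraries of days 12 and 15 (6.01 to 8.21%) lay above the 4 of days 6 and 9 (2.46 to 5.0%).

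Barcodes over 20% were far shallower than the others. The median UMIs per barcode over the 8 libraries were lowest, median and highest at 6656, 9873 and 13490 for 2 to 10%. They were 4670, 8910 and 13120 for 10 to 20%, and 1347, 2032 and 3304 over 20%. Over 20%, the nuclear-encoded UMIs alone had medians between 745 and 1734 per barcode. Within a library, the median at 10 to 20% was below that at 2 to 10% in 6 of 8, with the lowest ratio in SW620-TET2CD at day 6 (4670 against 8575 UMIs). It was above it in SW620-TET2CD at days 12 and 15. As the rule used the total UMIs in its denominator, these depths are a description.

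Ribosomal protein mRNAs, the largest class in growing cells, dropped past 20%. They made up 25.5, 28.0 and 32.0% (lowest, median and highest library) of nuclear-encoded UMIs at 2 to 10% and 24.3, 27.8 and 30.9% at 10 to 20%. Over 20% they made up 7.67, 10.1 and 13.6%, below every library of the other groups. Along finer bins the median over libraries was 28.2% at 10 to 12%, 27.6% at 12 to 15% and 26.4% at 15 to 20%. It then dropped to 13.6% at 20 to 30%, 8.50% at 30 to 50% and 7.64% over 50%.

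At the lower threshold the barcodes just outside and just inside were alike. The 4543 barcodes of 9 to 10% had a median of 8759 UMIs and 28.7% ribosomal protein UMIs, and the 3009 of 10 to 11% had 8081 UMIs and 29.0%. At the upper one the 161 barcodes of 18 to 20% had 3542 UMIs and 18.8%, and the 131 of 20 to 22% had 2362 UMIs and 14.3%.

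**Figure D2:**
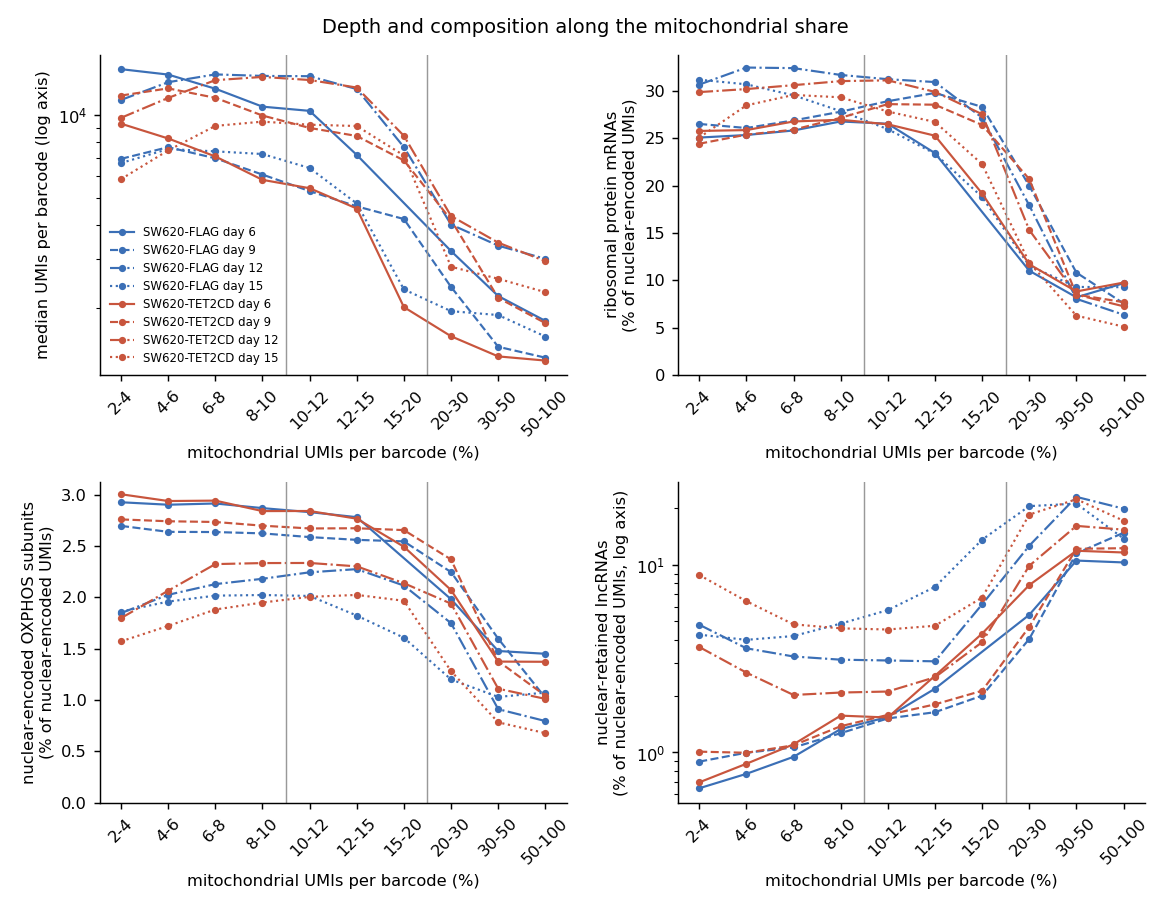
Median UMIs per barcode (top left, log axis) and the share of nuclear-encoded UMIs on ribosomal protein mRNAs (top right), nuclear-encoded oxidative phosphorylation subunits (bottom left) and nuclear-retained long noncoding RNAs (bottom right, log axis) in bins of the mitochondrial share (x axis, %); each line is a library, bins under 20 barcodes are left out and grey lines mark 10% and 20%. Ribosomal protein mRNAs stayed between 23.4 and 32.5% up to 15% mitochondrial UMIs and lay between 5.12 and 9.77% over 50%.

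Other classes of RNA were summed for each library as a share of its nuclear-encoded UMIs. Nuclear-encoded subunits of oxidative phosphorylation, which are built into the same complexes as the mitochondrial ones, took 2.42% ± 0.443 (SD, n = 8 libraries) at 2 to 10% and 2.41% ± 0.346 at 10 to 20%. Over 20% they took 1.35% ± 0.282, lower in 8 of 8 libraries. Abundant soluble cytosolic proteins such as actin, ferritin and GAPDH took 7.41% ± 0.511, 6.71% ± 0.311 and 2.73% ± 0.565 in the 3 groups, lower than at 2 to 10% in 8 of 8 libraries on both steps.

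MALAT1 (chr11:65497640-65508073, + strand, GRCh38), a nuclear long noncoding RNA, took 0.708, 1.55 and 4.76% of nuclear-encoded UMIs (lowest, median and highest library) at 2 to 10%. At 10 to 20% it took 1.38, 1.95 and 6.70%, higher in 5 of 8 libraries, and over 20% it took 8.47, 11.4 and 19.3%, higher in 8 of 8. The range over 20% did not overlap either of the others. The whole list of 13 nuclear-retained RNAs was at 14.4% ± 5.11 over 20% against 2.42% ± 1.75 at 2 to 10%. Most of this was MALAT1, at a mean of 13.1% and 2.17%.

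The 13 mitochondrial genes did not all take the same part in the higher share. These genes chose the members, so their makeup is described without a test. MT-CO3, MT-CO2, MT-ATP6 and MT-CO1 were the most abundant, at 22.5, 18.9, 16.2 and 14.0% of mitochondrial UMIs at 2 to 10%. Over 20%, MT-ATP6, a subunit of the ATP synthase, took 18.1% and MT-CO3, a subunit of complex IV, 23.7%. Both were higher in 8 of 8 libraries, by 0.16 ± 0.0669 and 0.08 ± 0.0381 on the log2 scale (mean ± SD). MT-ND6, the only mRNA copied from the other strand of the genome, was rare at 0.189% and higher by 0.43 ± 0.21 in 8 of 8. MT-ND2, MT-CO1, MT-ND3, MT-ND4L, MT-ND4 and MT-ND5 were lower in 8 of 8 libraries, most of all MT-ND4L (-0.41 ± 0.33), which had few UMIs. MT-ATP8, with the fewest UMIs at 0.0257%, was lower in 7 of 8 (-0.24 ± 0.22). The complex I subunits together went from 19.2 to 17.6%.

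At 10 to 20% the makeup was another one. MT-CYB, the complex III subunit, went from 9.19 to 10.1% of mitochondrial UMIs, higher in 8 of 8 libraries by 0.13 ± 0.0512 on the log2 scale, while over 20% it stood at 9.15% and was higher in 3 of 8. MT-ATP6 was again higher in 8 of 8 (0.07 ± 0.0257), and MT-ND1, MT-CO1 and MT-ND4L were lower in 8 of 8. MT-ND6, higher over 20%, was lower at 10 to 20% in 7 of 8 libraries.

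**Figure D3:**
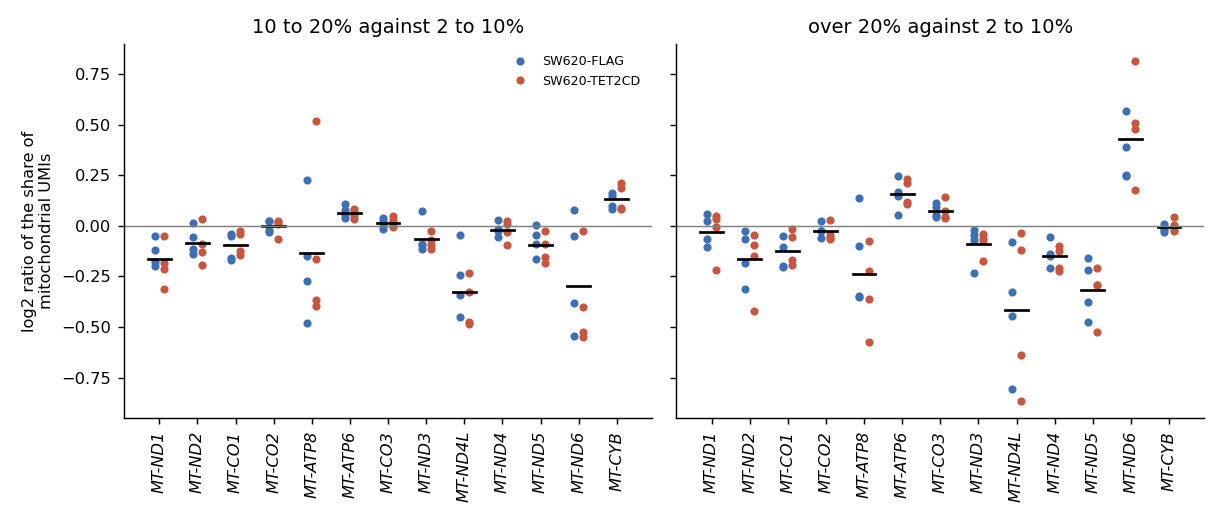
Log2 ratio of each gene's share of mitochondrial UMIs (y axis) at 10 to 20% (left) and over 20% (right) against 2 to 10% in the same library; points are libraries and black bars the means of 8. MT-CYB lay above 0 in all 8 libraries at 10 to 20% only, and MT-ND6 in all 8 over 20% only.

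To find which nuclear genes differed, UMIs were summed per library and group with the mitochondrial genes left out before scaling, and over 10% was compared with 2 to 10% within each library (edgeR quasi-likelihood test, library as block, trimmed-mean (TMM) scaling, Benjamini-Hochberg adjusted p under 0.05). Of 15530 genes tested, 5729 (36.9%) changed, 2354 (15.2%) higher and 3375 (21.7%) lower in the members. The log2 ratio had the same sign in 8 of 8 libraries for 25.1% of the genes tested. Cell-cycle genes were among the deepest falls, and long noncoding RNAs and the golgin genes GOLGA8A and GOLGA8B among the highest rises.

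Among the 12 deepest falls by the naming rule were UBE2C, CCNA2, CENPA, CDC20, SPC25, PIMREG, BIRC5, PBK and CCNB2, which act in cell division, and HIST1H1B, a replication-dependent linker histone. UBE2C, the conjugating enzyme of the anaphase-promoting complex, was at 28.9, 197 and 426 CPM (lowest, median and highest library) at 2 to 10%. It was at 18.5, 59.2 and 135 CPM at 10 to 20% and 17.3, 59.0 and 112 CPM over 20%. The ranges overlapped between groups. The libraries of days 12 and 15 were the 4 lowest at 2 to 10% and at 10 to 20%. Within libraries it was lower in 8 of 8, by a log2 fold change of -1.33 ± 0.13 (SE; edgeR adjusted p = 1.59e-05). CCNA2, the cyclin of S and G2 phase, fell by 1.33 ± 0.111 (4.85e-06) and CDC20, an activator of the anaphase-promoting complex, fell by 1.25 ± 0.087 (8.92e-07).

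Of the 25 genes of the G2 and mitosis list, 22 fell and none rose, with a median log2 fold change of -0.92 beside 0.00 over all genes tested. The S phase list gave 22 lower of 25 (median -0.50), with CDC45 of the replicative helicase at -0.91 ± 0.126 (0.000251, lower in 7 of 8 libraries) and TYMS, thymidylate synthase, at -0.90 ± 0.122 (0.000232). In barcodes of 2000 to 10000 nuclear-encoded UMIs alone these counts were smaller, with 7 G2 and mitosis genes (median -0.33) and 4 S phase genes (median -0.18) lower. Over all genes tested there, 1475 of 13332 were lower. RGCC, a regulator of the cell cycle, fell by 1.22 ± 0.116 (1.27e-05).

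Genes of abundant cytosolic proteins and of glycolysis were mostly lower with TMM scaling. All of the 26 abundant cytosolic genes were lower (median -0.55), led by TUBA1B, an alpha-tubulin, at -0.91 ± 0.157 (0.00104) and FTH1, the ferritin heavy chain, at -0.76 ± 0.165 (0.00309). Of 19 glycolysis genes 15 fell and none rose (median -0.58). LDHA, which turns pyruvate into lactate, was at 1047, 1723 and 2343 CPM at 2 to 10%, 649, 851 and 1507 CPM at 10 to 20%, and 193, 275 and 632 CPM over 20%. It was lower in 8 of 8 libraries, and the group over 20% did not overlap the comparison group. Its log2 fold change was -0.84 ± 0.128 (edgeR adjusted p = 0.000478), near those of ENO1 (-0.76), PGK1 (-0.75) and GAPDH (-0.75).

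Ribosomal protein genes fell in 81 of 82 tested (median -0.49), mitochondrial ribosomal proteins in 75 of 78 (-0.44), nuclear complex I subunits in 35 of 37 (-0.36), those of complexes II, III and IV in 22 of 25 (-0.40) and those of the ATP synthase in 17 of 18 (-0.43), and no gene of these lists rose with TMM scaling. NDUFA8 of complex I was at -0.55 ± 0.111 (0.00229), UQCRH of complex III at -0.54 ± 0.123 (0.00391), CYCS, cytochrome c, at -0.55 ± 0.12 (0.0032) and ATP5MC3, a ring subunit of the ATP synthase, at -0.52 ± 0.121 (0.00427).

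Other nuclear genes encode the proteins that serve the mitochondrial genome. In the list of mitochondrial DNA and RNA machinery 10 of 29 fell, none rose and 19 did not pass (median -0.06). TFAM, which packs mitochondrial DNA and starts its transcription, was at 155, 267 and 388 CPM at 2 to 10%, 115, 196 and 261 CPM at 10 to 20%, and 53.7, 89.9 and 140 CPM over 20%. It was lower in 8 of 8 libraries with a log2 fold change of -0.46 ± 0.102 (0.00339). SLIRP, a partner of the protein that stabilises mitochondrial mRNA, was at -0.49 ± 0.118 (0.00506). Mitochondrial chaperones and proteases gave 12 lower and 1 higher of 18, with the import cofactor GRPEL1 at -0.65 ± 0.106 (0.000822) and the chaperonin HSPD1 at -0.50 ± 0.117 (0.00446). The one that rose was SPG7, a protease of the inner membrane, at 0.60 ± 0.12 (0.00212).

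Stress lists held few rises with TMM scaling. Of the 27 integrated stress response genes measured 14 fell and none rose (median -0.24), among them TRIB3 at -0.79 ± 0.093 (8.32e-05) and MTHFD2, a folate enzyme of mitochondria, at -0.54 ± 0.0835 (0.000498). Cytosolic heat shock proteins gave 11 lower of 14, with HSP90AA1 at -0.56 ± 0.128 (0.00415). Of 24 apoptosis genes 7 fell and 1 rose. BIK and PMAIP1, which promote cell death, fell by 0.48 ± 0.0811 (0.000984) and 0.47 ± 0.0817 (0.00103). Mitophagy genes gave 5 lower and 1 higher of 17, the former with MAP1LC3B at -0.36 ± 0.0943 (0.0086) and the latter ULK1, a starter kinase of autophagy, at 0.45 ± 0.145 (0.0234). Of 25 immediate early genes 4 fell, with FOSL1 at -0.73 ± 0.0842 (6.99e-05). Over all genes tested 15.2% were higher and 21.7% lower. The apoptosis, mitophagy and immediate early counts on the lower side were close to the latter share.

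Hypoxia genes gave 14 lower and none higher of 23 (median -0.33). NDRG1 was at -1.22 ± 0.175 (0.000354), EGLN3, an oxygen-sensing hydroxylase, at -1.04 ± 0.126 (8.86e-05), NDUFA4L2 at -0.95 ± 0.175 (0.00144) and DDIT4 at -0.92 ± 0.152 (0.000853). EGLN3 was lower in 8 of 8 libraries, whereas NDRG1 and DDIT4 were lower in 6 and NDUFA4L2 in 7. Epithelial and mesenchymal genes gave 5 lower and 1 higher of 16 (median -0.14). VIM, vimentin, fell by 0.90 ± 0.108 (8.86e-05) and the keratins KRT18 and KRT19 by 0.50 ± 0.137 (0.0102) and 0.51 ± 0.118 (0.00428), while KRT20 was the one that rose (0.71 ± 0.269, 0.0461). Further lists gave 12 lower of 20 for cholesterol synthesis, led by ACAT2 (-0.69) and FDFT1 (-0.53), 13 of 21 for NRF2 targets with TXN at -0.52, and 16 of 30 for the secretory machinery with SEC61G at -0.54.

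Among the rises GOLGA8A and GOLGA8B, neighbouring golgin genes on chromosome 15 (chr15:34378935-34437808 and chr15:34525095-34588503, both - strand), were first. They are near-identical copies, so the split of reads between them is uncertain. GOLGA8B was at 7.27, 8.26 and 12.7 CPM at 2 to 10%, 7.11, 12.2 and 19.6 CPM at 10 to 20%, and 36.4, 82.7 and 120 CPM over 20%. All libraries over 20% lay above all others. Over all members the log2 fold change was 1.49 ± 0.205 (edgeR adjusted p = 0.000251). Of the 12 leading rises, 7 are annotated as long noncoding RNAs, such as AC007608.3 (1.04 ± 0.119, 6.69e-05), SLC9A3-AS1 (0.98 ± 0.135, 0.000253), and LINC00342 (0.92 ± 0.15, 0.000801). The others were GOLGA8A, GOLGA8B, SULT1C2, a sulfotransferase (1.15 ± 0.149, 0.000154), PABPC1L, a poly(A)-binding protein (0.96 ± 0.15, 0.000565), and PILRB, an immunoglobulin-like receptor (0.92 ± 0.135, 0.000392). SLC9A3-AS1 is an antisense gene, and the sources used here do not say whether the counting used strand.

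Of 12 nuclear-retained noncoding RNAs 10 rose and none fell (median 0.57). FTX rose by 0.86 ± 0.159 (0.00149), MALAT1 by 0.80 ± 0.232 (0.0138), KCNQ1OT1 by 0.76 ± 0.16 (0.0027) and NEAT1 by 0.66 ± 0.188 (0.0127). MALAT1 and NEAT1 were higher in 7 of 8 libraries. Splicing factors and nuclear speckle genes gave 4 higher and 3 lower of 25 with TMM scaling, 7 and 2 with upper-quartile factors, and 19 and none with plain library totals. With TMM scaling DDX17 was at 0.39 ± 0.0951 (0.00526) and SRSF3 at -0.50 ± 0.117 (0.00427). TET2 was slightly higher in the members, by 0.29 ± 0.108 (0.0407), in 7 of 8 libraries. Its means at 2 to 10%, 10 to 20% and over 20% were 90.9, 91.8 and 86.4 CPM in SW620-TET2CD. In SW620-FLAG they were 4.30, 4.26 and 8.21 CPM.

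These log2 values depend on the scale. TMM scaling sets the bulk of genes to no change and gave factors of 0.646 to 0.869 at 2 to 10%, 0.791 to 1.04 at 10 to 20% and 1.33 to 1.64 over 20%. Against plain shares of nuclear-encoded UMIs this lowers a log2 ratio over 20% by 1.08 on average. With plain library totals the median of all genes moved from 0.00 to 0.27 and 6596 genes changed (42.5%), 5939 (38.2%) higher and 657 (4.23%) lower. Nuclear noncoding RNAs went from 10 to 11 higher of 12. The G2 and mitosis list went from 22 to 17 lower of 25 (median -0.61) and S phase from 22 to 8 (-0.20), with no gene higher in either. The falls of ribosomal proteins (24 lower and 1 higher of 82) and complex I subunits (3 lower and 2 higher of 37) went mostly out of reach of the threshold, although both medians (-0.18 and -0.05) stayed below that of all genes. Mitochondrial ribosomal proteins gave 15 lower of 78, complexes II, III and IV 5 lower and 2 higher of 25 and the ATP synthase 3 lower of 18. Mitochondrial chaperones gave 2 lower and 2 higher of 18, heat shock proteins 2 lower and 1 higher of 14, and epithelial and mesenchymal genes 3 lower and 3 higher of 16. With upper-quartile factors 5594 genes changed (36%), 3421 (22%) higher and 2173 (14%) lower. Abundant cytosolic genes went from 26 to 18 lower of 26 with plain totals. The mitochondrial DNA and RNA machinery turned to 12 higher and none lower of 29 with plain totals. The autophagy and lysosome list turned from 2 higher and 5 lower of 25 to 15 higher and none lower. Apoptosis genes (10 higher, 1 lower of 24) and mitophagy genes (5 higher, none lower of 17) turned as well. So did immediate early genes (5 higher, 1 lower of 25) and the secretory machinery (7 higher, 2 lower of 30). Beside the 38.2% of all genes higher on this scale, the mitochondrial DNA and RNA machinery and apoptosis lists were near that share. The mitophagy, immediate early and secretory lists were below it. Cholesterol synthesis gave 2 higher and 3 lower, NRF2 targets 3 and 3, the integrated stress response 3 and 5, hypoxia genes none and 4, and glycolysis 2 and 12.

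To see which members carried these changes, each group was set against 2 to 10% alone, a choice made after seeing the data. Barcodes of 10 to 20% gave 2343 of 15307 genes (15.3%), 741 (4.84%) higher and 1602 (10.5%) lower. Those over 20% gave 10101 of 14782 (68.3%), 4740 (32.1%) higher and 5361 (36.3%) lower. At 10 to 20% all of the 25 G2 and mitosis genes were lower (median -0.96), and UBE2C stood at -1.31, CDC20 at -1.21 and BIRC5 at -1.14. In the same group S phase gave 22 lower of 25 (median -0.45), glycolysis 14 of 19 (-0.39), the integrated stress response 14 of 27 (-0.24) and hypoxia genes 12 of 23 (-0.36), and no gene of these lists was higher at 10 to 20%. The summed share of hypoxia genes, without TMM scaling, was higher than at 2 to 10% in 5 of 8 libraries (median ratio 1.12). Over 20%, S phase gave 18 lower and none higher of 25 (-0.72), glycolysis 15 and none of 19 (-1.41) and hypoxia genes 15 lower and 3 higher of 23 (-0.70).

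By contrast, ribosomal protein genes gave 12 lower of 82 at 10 to 20% (median -0.20) and 81 of 82 over 20% (median -2.46). Complex I subunits gave 3 lower of 37 and then 36, and ATP synthase subunits 2 of 18 and then 18. Nuclear-retained noncoding RNAs gave 3 higher of 11 at 10 to 20% and 10 of 11 over 20% (median 1.5). Against 2 to 10%, the G2 and mitosis genes took 0.625 times the share at 10 to 20% (median of 8 libraries, range 0.47 to 0.921), lower in 8 of 8. Autophagy and lysosome genes took 1.12 times the share, higher in 8 of 8, with 2 of 25 past the threshold on the higher side and none on the lower. One of these was GRN, progranulin of the lysosome, at 0.39 (edgeR adjusted p = 0.00017).

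Over 20% the direction of several lists depended on the scale. The G2 and mitosis genes took 1.82 times the share at 2 to 10%, higher in 8 of 8 libraries, yet with TMM scaling 14 of 25 were lower and 5 higher. Integrated stress response, apoptosis and cholesterol synthesis genes took 1.39, 1.40 and 1.31 times their share, each higher in 8 of 8 libraries. Hypoxia genes took 1.46 times their share (higher in 7 of 8) and S phase genes 1.10 times (higher in 5 of 8), although both had more genes lower than higher with TMM scaling. With TMM scaling the integrated stress response gave 15 genes lower and 4 higher of 26, and cholesterol synthesis 13 and 4 of 20. Apoptosis gave 9 lower and 7 higher of 24, close to the 36.3% and 32.1% over all genes tested. Its median was 0.10, so this list did not change sides. Ribosomal proteins (0.354 times), cytosolic proteins (0.355 times), NRF2 targets (0.349 times), glycolysis (0.424 times) and ATP synthase subunits (0.455 times) were lower on both scales. Nuclear noncoding RNAs (7.17 times, MALAT1 alone 7.37 times) and speckle genes (2.23 times) were higher on both.

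**Figure D4:**
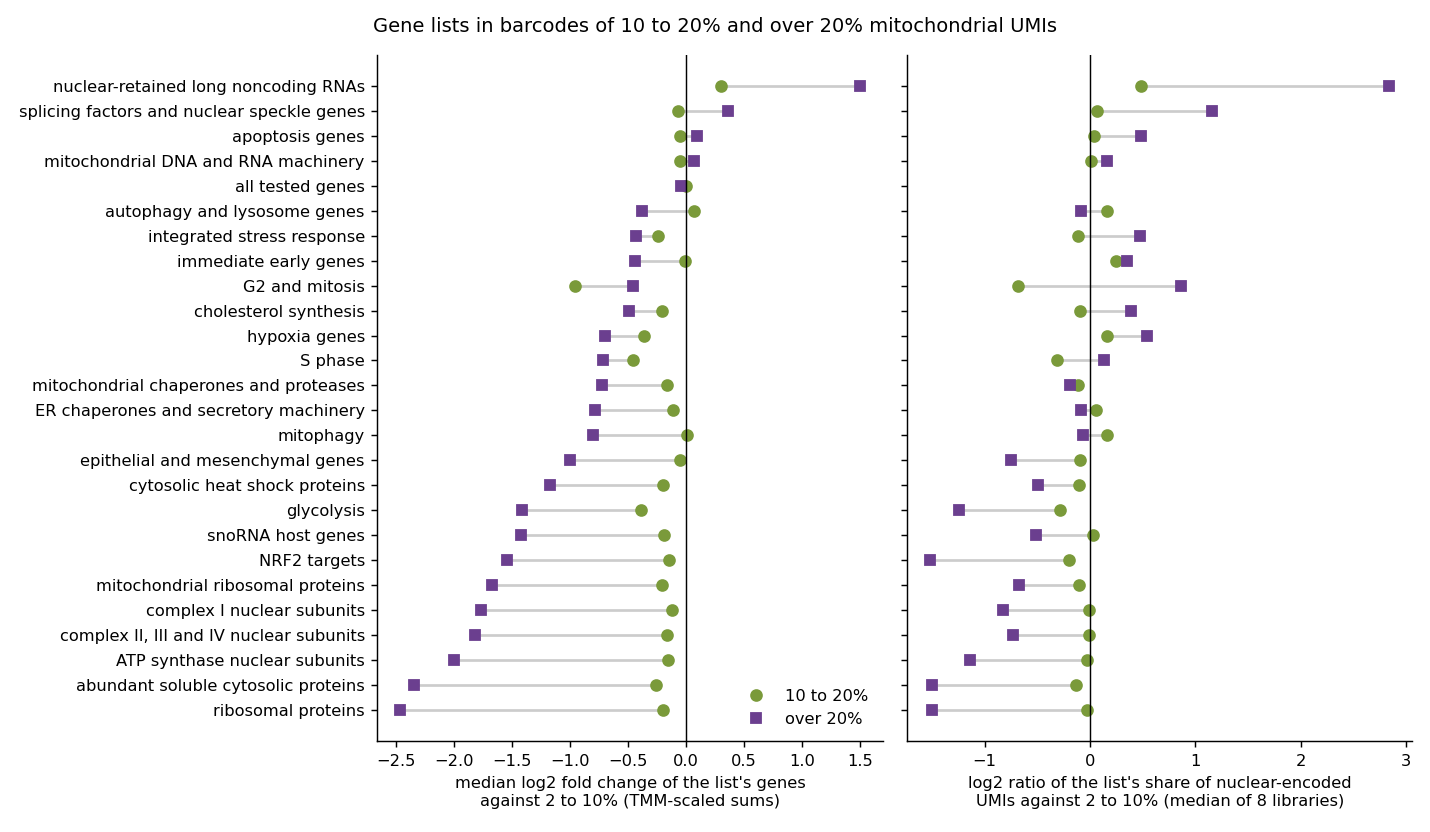
Gene lists at 10 to 20% (circles) and over 20% (squares) against 2 to 10%: the median log2 fold change of a list's genes with TMM scaling (left x axis) and the log2 ratio of the list's summed share of nuclear-encoded UMIs, as the median of 8 libraries (right x axis). Ribosomal proteins were lowest over 20% on the left (median -2.46), nuclear-retained RNAs highest on both, and the G2 and mitosis list was on opposite sides of 0 over 20%.

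The step at 20% was tested within the members, over 20% against 10 to 20% in the same library. Of 9471 genes tested, 7283 (76.9%) changed, 3686 (38.9%) higher and 3597 (38.0%) lower. Sums over 20% held between 236900 and 1055403 nuclear-encoded UMIs per library, so weakly expressed genes fell out of the test. With plain totals 7486 genes (79.0%) changed, 5451 (57.6%) higher and 2035 (21.5%) lower, and the median of all genes moved from 0.02 to 0.53.

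HIST1H4C, a replication-dependent histone H4 gene whose mRNA lacks a poly(A) tail, was the deepest fall named by the rule. It was at 551, 1210 and 2339 CPM at 2 to 10%, 306, 606 and 1395 CPM at 10 to 20%, and 43.1, 66.2 and 185 CPM over 20%. The group over 20% lay below both others, with a log2 fold change of -2.82 ± 0.0947 against 10 to 20% (edgeR adjusted p = 2.29e-33). TPT1 (-2.61), RPS12 (-2.57), RPL12 (-2.49) and RPS14 (-2.39) followed, the last 3 of them ribosomal proteins and TPT1 a translationally controlled protein. RPS12 (chr6:132814569-132817564, + strand), a protein of the small ribosomal subunit, was at 7757, 9478 and 10210 CPM at 2 to 10%, 4976, 7047 and 9267 CPM at 10 to 20%, and 736, 996 and 1610 CPM over 20%.

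Of the 82 ribosomal protein genes tested 81 fell (median -2.02). The exception was RPS21, which rose by 0.31 ± 0.0916 (0.00204) and was singled out after its value was seen. Falls also took in 35 of 37 complex I subunits (median -1.39), 24 of 25 of complexes II, III and IV (-1.42), 18 of 18 of the ATP synthase (-1.57), 75 of 77 mitochondrial ribosomal proteins (-1.23) and 26 of 26 cytosolic genes (-1.75).

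Rises were led by PIF1, a DNA helicase, at 3.34 ± 0.173 (1.90e-25), GOLGA8B at 3.20 ± 0.137 (7.31e-29), GOLGA8A at 3.19 ± 0.136 (6.46e-29), POLQ, a DNA repair polymerase, at 3.11 ± 0.225 (4.43e-19) and BX842570.1, a long noncoding RNA, at 2.90 ± 0.252 (7.87e-16). PIF1 was at 1.45, 12.1 and 33.1 CPM at 2 to 10%, 1.49, 7.50 and 44.5 CPM at 10 to 20%, and 9.22, 83.0 and 168 CPM over 20%. Its groups overlapped across libraries, and it was higher over 20% in 8 of 8. MALAT1 rose by 1.89 ± 0.136 (3.90e-19), and 10 of 11 nuclear-retained RNAs and 22 of 25 speckle genes rose.

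Mitotic genes parted at this step. Of 24 tested in the G2 and mitosis list 16 rose, 1 fell and 7 did not pass, and with plain totals all 24 rose. CENPF, a kinetochore protein, was at 61.2, 291 and 608 CPM at 2 to 10%, 46.8, 142 and 351 CPM at 10 to 20%, and 206, 530 and 856 CPM over 20%. It rose by 1.98 ± 0.108 (1.93e-24), as did MKI67 by 1.99 ± 0.118 (9.15e-23), CENPE by 2.09 ± 0.166 (2.47e-17) and TOP2A by 1.43 ± 0.118 (8.70e-17). UBE2C did not pass (0.12 ± 0.156, 0.47) and BUB3 fell by 0.20 ± 0.0943 (0.047) with TMM scaling and rose by 0.31 with plain totals. These genes were chosen after their values were seen. CENPF and MKI67 have long mRNAs, with 12471 and 12845 bases of annotated exon, and UBE2C has 1286.

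**Figure D5:**
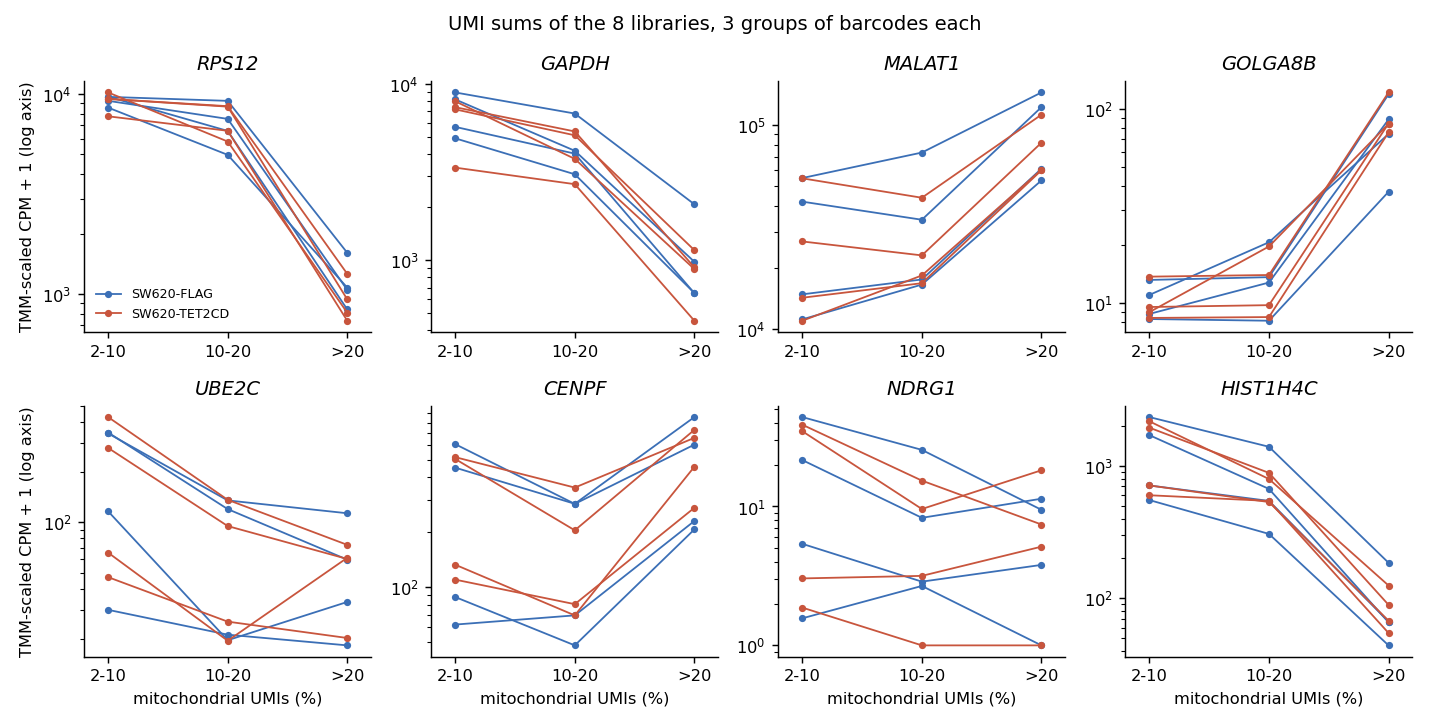
TMM-scaled CPM plus 1 (y axes, log scale) of 8 genes in barcodes of 2 to 10%, 10 to 20% and over 20% mitochondrial UMIs (x axis); each line joins the 3 sums of a library. RPS12, GAPDH and HIST1H4C were lower over 20% than at 10 to 20% in all 8 libraries, MALAT1, GOLGA8B and CENPF higher in all 8, and UBE2C fell on the first step alone.

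Gene length went with the step over all genes tested. Genes were parted into 4 equal groups by summed exon length (the union of annotated transcripts, GENCODE release 44). In the shortest (209 to 3484 bases) 71.7% of genes were lower and 12.5% higher over 20%, with a median log2 fold change of -0.86. The next had medians of -0.16 and 0.27. In the longest (8529 to 205012 bases) 13.5% were lower and 67.1% higher, with a median of 0.62. Genes that rose had a median of 7839 exon bases and those that fell 3632. For over 10% against 2 to 10% such groups had medians of -0.05, -0.09, 0.00 and 0.12 from the shortest to the longest. Long noncoding RNAs were 30.3% of the genes that rose there and 1.33% of those that fell, beside 18.1% of all annotated genes tested.

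Depth differed between the groups, so the gene tests were repeated in barcodes of 2000 to 10000 nuclear-encoded UMIs. Over 10% against 2 to 10% then gave 2350 of 13332 genes (875 higher, 1475 lower), with 2285 of them among the 5729 and of the same sign. Ribosomal proteins gave 71 lower of 82 (median -0.37), while G2 and mitosis gave 7 and S phase 4 lower of 25. The window limits the depth of both groups and does not make it equal. The step at 20% gave 4828 of 7891 genes (2432 higher, 2396 lower) in the 4 libraries with at least 50 barcodes per group. These were the libraries of days 12 and 15, so the window changed days as well as depth, and the 2 cannot be told apart. Ribosomal proteins were at a median of -1.78 with 81 of 82 lower, and G2 and mitosis genes at 2.08 with 18 of 19 higher.

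The number of different genes per barcode was compared after each was thinned to 1000 nuclear-encoded UMIs. Medians over all members were higher than at 2 to 10% by 28.5 ± 27.8 genes (SD, n = 8 libraries), in 6 of 8 libraries (exact sign-flip permutation, two-sided p = 0.0312). The exceptions were the 2 libraries of day 9. For 10 to 20% alone the difference was 13.3 ± 18.8 genes (exact sign-flip permutation, p = 0.0859), and for over 20% alone 83.7 ± 21.6 genes in 8 of 8 libraries (p = 0.00781, the smallest that 8 libraries allow). Thinning left out 1168 of the 3038 barcodes over 20%, 35 of the 7242 of 10 to 20% and 7 of the 45848 of 2 to 10%. Unthinned medians ran the other way, between 569 and 1069 genes over 20% and between 2330 and 3711 at 2 to 10%. Without any 1 of the 6 libraries of days 6, 12 and 15 the p for all members became 0.0625, with differences of 23.5 to 29.3 genes.

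Whether the lines differed in the change with mitochondrial share was tested as an interaction. No gene of 15530 (0.0%) passed in edgeR, where 189 had an unadjusted p under 0.05, and DESeq2 gave none, with 100 such genes. The fit had no term for day in the effect, so differences between days added to its spread. The lack of calls does not show that the lines were alike.

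Between days 12 and 15 and days 6 and 9 the change did differ for some genes. Both libraries of a day were counted as independent in this test. Of 15530 genes 213 (1.37%) passed, 74 (0.476%) with a higher and 139 (0.895%) with a lower effect on the late days. The split turned in DESeq2 (458 higher, 271 lower), without ribosomal protein genes (286 and 116) and for over 20% only (836 and 184), and was near even with plain totals (76 and 73). Single libraries decided this count. Among SW620-TET2CD libraries, leaving out day 9 gave 16 genes, day 12 gave 54, day 15 gave 77 and day 6 gave 474. Among SW620-FLAG libraries, leaving out day 12 gave 33, day 15 gave 666 and day 9 gave 277 (207 higher, 70 lower). With no library block 0 genes passed in edgeR (1343 at an unadjusted p under 0.05). LEMD1, a cancer-testis antigen, had a mean log2 ratio of members to 2 to 10% of 0.76 on the early days (0.28 to 1.01) and -0.79 on the late days (-0.93 to -0.46). The difference was -1.68 ± 0.182 (edgeR adjusted p = 0.00034). SLCO4A1-AS1 (-1.62), ISG20, an RNA exonuclease (-1.45), DEPP1 (-1.72) and NRN1 (-1.39) also had a lower effect on the late days. The effect was higher on the late days for RMRP, the RNA of RNase MRP (1.23), ATAD3B of the inner mitochondrial membrane (1.10), the replication fork protein TIPIN (0.96) and the condensin II subunits NCAPD3 (0.93) and NCAPH2 (0.92). Of these 10 genes, 7 lost the call and 1 turned in barcodes of no more than 2 UMIs on S phase and G2 and mitosis genes. The rest were not in that fit, so none of the 10 kept the call there.

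Among the lists, 10 of 25 S phase genes had a higher effect on the late days, and 6 of 25 immediate early, 4 of 17 mitophagy and 3 of 23 hypoxia genes a lower one. These counts changed with the choice of barcodes. For 10 to 20% only they were 20 S phase, 16 immediate early, 8 mitophagy and 15 hypoxia genes, and for over 20% only they were 16 S phase, 9 immediate early, no mitophagy and 2 hypoxia genes, each in the same direction. Over all genes tested, 1020 were higher and 1048 lower of 15307 for 10 to 20% only. For over 20% only, 836 were higher and 184 lower of 14782. No G2 and mitosis gene of 25 passed over all members, but 22 had a higher effect on the late days at 2000 to 10000 nuclear-encoded UMIs and 23 for over 20% only. Over all genes in that window of UMIs, 381 of 13332 had a higher effect. With plain totals hypoxia gave 1 lower. Over all members the replicative helicase genes MCM2, MCM3, MCM6 and MCM7 and the replication factor MCM10 were among the S phase genes, and EGLN3, BNIP3L and MXI1 were the hypoxia genes. Both were named after their values were seen. Summed hypoxia genes took a higher share of nuclear-encoded UMIs at 10 to 20% than at 2 to 10% in all 4 libraries of days 6 and 9, as in SW620-FLAG at day 6 (0.0454 to 0.0575%). On the late days the share was lower in SW620-FLAG at day 12 (0.203 to 0.142%) and in SW620-TET2CD at days 12 (0.213 to 0.131%) and 15 (0.200 to 0.153%), and higher in SW620-FLAG at day 15 (0.205 to 0.232%). Summed S phase genes were lower at 10 to 20% in all 4 early libraries, as in SW620-FLAG at day 6 (0.284 to 0.196%). Late libraries went both ways. S phase genes went from 0.0485 to 0.0559% in SW620-FLAG at day 12 and from 0.0510 to 0.0549% in SW620-TET2CD at day 15, but from 0.0820 to 0.0718% in SW620-TET2CD at day 12 and from 0.0395 to 0.0372% in SW620-FLAG at day 15. In all 3 groups hypoxia genes were higher, and S phase genes lower, in each library of days 12 and 15 than in each of days 6 and 9.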

How the data were processed

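Single-cell 3′ RNA-seq (10x Chromium, kit v3.1) of 8 libraries was used. Per the file headers and labels, the authors made the UMI counts per gene and barcode with Cell Ranger 4.0 on GRCh38, and deposited them without normalization. Whether intronic reads were counted is not stated there. Expected counts of 6 bulk libraries, deposited by the authors after Bowtie and RSEM, served only for the mitochondrial share in bulk RNA. The labels of the bulk samples name a mouse genome build, whereas their tables hold human gene identifiers, so the build behind those values is uncertain. No replicates were pooled.

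The members and gene lists were chosen with earlier results of these data known. The authors dropped barcodes over 10% mitochondrial UMIs, and the same limits of 200 to 4500 genes and 1000 to 20000 UMIs were kept here. Doublets were not called, and leaving out the 8% of barcodes with most UMIs was an alternative. The 13 mitochondrial genes were left out, counts were summed per library and group, and edgeR 4.0.16 (R 4.3.3; glmQLFit, TMM scaling, low counts filtered, library as block) was fitted over all genes, with Benjamini-Hochberg adjustment at 0.05 and DESeq2 1.42.0 as an alternative. Fold changes are log2, errors are standard errors. CPM are TMM-scaled. Shares of list genes use plain nuclear-encoded UMIs. Shares of barcodes and genes per barcode were compared by exact permutation over libraries (scipy 1.17.1). Genes were named by rule: the 12 highest and 12 lowest of the first gene test, and the 5 highest and 5 lowest of each other test, among those past the threshold, of 1 sign in all libraries (for interactions, with sides not overlapping) and of at least 8 mean CPM. To these were added the 4 largest changes of each list, TET2, MALAT1 and NEAT1, and a subset of all these is given. The ratio behind the sign used a pseudocount of 1. Alternatives were other scalings, no filter, no block, other limits, depth windows and each library left out. Coordinates and exon lengths came from GENCODE release 44 (GRCh38). Scripts were tested on simulated data. Depth ran from 60309495 to 128282918 UMIs per library, and binomial intervals cover counting error only.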

Additional observations from a re-analysis of the deposited data

Results flagged for a closer look

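The difference between lines in the share of barcodes over 10% ran in opposite directions by day. It was -3.08 points on day 6 and -6.40 points on day 9, and 6.06 points on day 12 and 12.5 points on day 15. With 1 library per line and day this difference between days was not tested.

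For 213 genes the change from 2 to 10% to over 10% differed between days 12 and 15 and days 6 and 9 (edgeR interaction, adjusted p under 0.05). The log2 difference was 1.23 for RMRP, 1.10 for ATAD3B, 0.96 for TIPIN, 0.93 for NCAPD3 and 0.92 for NCAPH2. It was -1.72 for DEPP1, -1.68 for LEMD1, -1.62 for SLCO4A1-AS1, -1.45 for ISG20 and -1.39 for NRN1. All 10 of these genes lost the call with no library block. In barcodes of no more than 2 cell-cycle UMIs 7 of them lost it, 1 turned and the rest were not in the fit. RMRP was lower in the members on the early days (mean log2 ratio -1.48) and near level on the late days (0.01). NCAPD3 went from -0.75 to 0.15 and SLCO4A1-AS1 from 1.00 to -0.51. Days 12 and 15 were also the libraries with the lowest S phase shares, whose part in these differences was not tested. None of the 22 groups of 8 libraries tested for an outlying library had one.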

How the results depend on the processing

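The lines were paired by day in the tests of shares, and the gene tests compared barcodes within a library, with the library as block. With no library block 3956, 6903, 0 and 0 genes passed in place of 5729 (over 10%), 7283 (step at 20%), 0 (lines) and 213 (days).

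For over 10% against 2 to 10% the count was 2350 at 2000 to 10000 nuclear-encoded UMIs, and, chosen after seeing the data, 2343 with 10 to 20% only and 10101 with over 20% only. Leaving out 1 library gave 4216 to 5673. For the step at 20% it was 4828 in that window of UMIs, where only libraries of days 12 and 15 were used. At that step, leaving out 1 library gave 6503 to 7337. The line interaction gave 2 genes with no filter on low counts and 0 in every fit without a library.

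The day interaction moved most. It gave 729 genes in DESeq2, 588 with no filter, 402 without ribosomal protein genes, 772 at 2000 to 10000 UMIs, 71 with no upper limits, 323 without the 8% of barcodes with most UMIs, 37 at no more than 2 cell-cycle UMIs, 37 against 5 to 10%, 1991 for the barcodes of highest against those of middle mitochondrial share in each library, 2068 for 10 to 20% only and 1020 for over 20% only. Leaving out 1 library gave 16 to 666.

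The line difference in share was -0.0551 points over 20%, -0.109 over 15% and -1.14 to 5.16 without 1 day. The day difference was -0.526 at 2000 to 10000 UMIs, -0.170 for 10 to 20% alone and -1.98 to 8.12 without 1 library. Genes per barcode differed by 13.3 for 10 to 20% only and by 23.5 to 34.4 without 1 library.

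Of the single genes, LUC7L turned to -0.0422 with 10 to 20% only and GRN to -0.0281 with over 20% only. At the step of 20% UBE2C went to -0.146 with no filter, -0.385 with no upper limits and -0.159 to 0.233 without 1 library, and BUB3 to 0.0781 at 2000 to 10000 nuclear-encoded UMIs, 0.297 at no more than 2 cell-cycle UMIs and 0.311 with plain totals. In the day interaction NCAPH2 went to -0.436 at no more than 2 cell-cycle UMIs and SLCO4A1-AS1 to 0.15 with over 20% only. Of the other values for 96 named genes, 1857 kept direction and call, 124 lost the call and 2 gained it. The cause was not tested. Sums over 20% are shallow, which limits rare genes there.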

Other observations

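Host genes of small nucleolar RNAs split at the step of 20%, with 9 of 13 lower and 4 higher (median -1.09). SNHG29, at -2.67 over 20% against 2 to 10%, and SNHG6, at -2.30, were among the falls. SNHG3 rose by 1.22 ± 0.0827 at the step (edgeR adjusted p = 2.66e-20) and SNHG1 by 0.88 ± 0.119 (1.53e-09), both named after their values were seen. Mitochondrial DNA and RNA machinery gave 14 higher and 11 lower of 29 at the same step, not far from the 38.9 and 38.0% over all genes tested, with POLG, the polymerase of mitochondrial DNA, at 1.06 ± 0.145 (2.52e-09), also chosen after its value was seen. Hypoxia genes gave 6 higher and 6 lower of 19 (median -0.15). With plain totals they gave 10 higher and 2 lower, and the mitochondrial DNA and RNA machinery 18 and 6. Over all genes tested 57.6% were higher and 21.5% lower on that scale, and both lists were near the former share. Among hypoxia genes chosen after their values were seen, SLC2A3, a glucose transporter, rose by 1.32 ± 0.151 (1.49e-11) and VEGFA by 0.87 ± 0.117 (1.67e-09), while NDUFA4L2 fell by 1.22 ± 0.221 (1.81e-06) and BNIP3L by 1.14 ± 0.124 (2.55e-12).

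Barcodes outside the limits were not members. Of 1223 below the lower limits 835 were over 10% mitochondrial UMIs, and of 7271 above the upper limits 394 were. In bulk RNA-seq the 13 mitochondrial genes took 4.95% of expected counts in SW480, another colorectal cancer line, and 5.19% in SW620, both at day 6. They took from 5.30 to 5.71% in the 4 day 15 libraries of SW620-FLAG and SW620-TET2CD cells from inside or outside colonies.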
